A study of Homo sapiens with 42 samples.

Results

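The genes described here are 39 human DNA repair genes that act on crosslinks, double-strand breaks, mismatches and bulky lesions, read in 42 RNA libraries of HAP1 cells. They were taken by name from a list: 8 genes of the Fanconi core complex, the FANCD2 and FANCI pair, 9 recombination genes, 3 genes of crosslink ubiquitin ligation and incision, 5 mismatch repair genes, and 12 nucleotide excision repair genes. All 39 stood among the 20515 named genes of the table, and all 39 were among the 14331 genes with a mean of 10 or more normalized reads that were tested. HAP1 is a near-haploid human cell line that grows attached and descends from a leukaemia line. Per the labels the cells were wild type (wt), single knockouts named neil1, neil2 and neil3 after the gene they lack, or the triple knockout neil123; NEIL1, NEIL2 and NEIL3 are DNA glycosylases that cut out oxidized bases. Each genotype was kept in media alone or given 200 µM BSO (buthionine sulfoximine) for 48 h, begun after 4 h, which blocks glutamate-cysteine ligase and so glutathione synthesis. Each treatment had 7 libraries of wt, 3 each of neil1 and neil2, and 4 each of neil3 and neil123. The library names point to 2 lines of each knockout (12 and 13 for neil1, 11 and 12 for neil2, 1 and 2 for neil3 and for neil123), and how the lines were made is not given in the sources used here.

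Most of these genes guard the genome against lesions that a glycosylase does not handle. At a DNA interstrand crosslink, which ties both strands together and stops a replication fork, the Fanconi core complex attaches ubiquitin to the FANCD2 and FANCI pair, nucleases unhook the crosslink, and homologous recombination rebuilds the broken chromatid. NEIL3 opens certain crosslinks at converged forks by cutting a glycosidic bond, a route that the ubiquitin ligase TRAIP sets off and that precedes the Fanconi route. Mismatch repair removes errors of replication, and nucleotide excision repair opens a bubble around a bulky lesion and cuts it out on both sides.

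The libraries fell into a set whose names end in A or B (lettered: 4 wt per treatment, neil3, neil123; 26.8 M to 28.7 M reads) and a set without a letter (unlettered: 3 wt per treatment, neil1, neil2; 29.9 M to 30.7 M reads). These 2 sets of wt differed in media for 39.1% of all genes tested and for 23 of the 39 repair genes, so each knockout was compared with wt of its own set. NEIL2 RNA stood below wt in every neil2 and neil123 library (neil2 in media 299.8 to 328, wt 487 to 613), and NEIL3 RNA below wt in every neil123 library. NEIL3 in neil3 (409.6 to 614 in media) and NEIL1 in neil1 and in neil123 overlapped wt, so RNA levels did not check those labels. Of 11 blood cell markers 6 were in the table and none reached the filter (summed level of 5.86 to 26.4 per library), whereas the stromal markers summed to 12303 to 24477. The 4 epithelial markers in the table summed to 2710 to 3362 in unlettered wt, 3123 to 9795 in neil1 and 4966 to 10232 in neil2 in media, and to 2507 to 3840 (wt), 2853 to 11010.1 (neil1) and 5193 to 9274 (neil2) with BSO. Every neil2 library thus lay above unlettered wt, KRT8 rose and EPCAM fell in neil2, in media and with BSO, of the 3 tested, and in the lettered libraries the sum ran from 1817 to 4039. Their part in the neil2 results was not tested. Levels are normalized read counts in library order: wt_1.1, wt_1.3, wt_p1 for unlettered wt; neil1_12, neil1_13.1, neil1_13.2; neil2_11.1, neil2_11.2, neil2_12; 1.1A, 1.1B, 1.3A, 1.3B for lettered wt; 1A, 1B, 2A, 2B for neil3 and neil123. Changes are log2 differences ± standard error with limma's p adjusted over all 14331 genes, and a gene is said to rise or fall where that p was under 0.05. These p-values measure the spread between libraries of a few lines, which the labels, other than those of unlettered wt, call biological replicates, and in bulk RNA fewer cells expressing a gene and less RNA per cell cannot be told apart.

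Few of the 39 repair genes differed between a knockout and wt, and none by more than 0.49 on the log2 scale. In media 2 rose in neil2, FANCG of the Fanconi core and ERCC3, a helicase of excision repair, which is 5.13% of the 39 against 11% of all genes tested that passed in that comparison (4.74% upward). In neil123 in media XPA, the lesion verifier of excision repair, rose and ERCC2, the partner helicase of ERCC3, fell, 5.13% of the 39 beside 5.34% of all genes. With BSO 7 rose in neil2 (XRCC2, PALB2, FANCB, FANCL, PMS1, FANCI and ERCC3) and DDB1 fell, 20.5% of the 39 beside 15.8% of all genes (7.38% upward and 8.43% downward), and in neil123 XPA rose again, 2.56% of the 39 beside 8.09% (4.52% upward). No member passed in neil1 or neil3 in either condition, where few of all genes did: 0.3% and 0.44% in media, and 0.202% and 0.405% with BSO. At an unadjusted p under 0.05 stood 5 members in neil1 and 2 in neil3 in media, and 8 and 0 with BSO. These counts were not set beside the share of all genes at that p, and the shares above are at the adjusted p. In each of these 4 comparisons edgeR called 0 members. Altogether 13 of 312 such tests passed, spread over 11 genes, beside 0.202% to 15.8% of all genes in the single comparisons. Leaving out 1 library changed these counts: in neil2 in media to 0 without wt_1.1, wt_1.3 or neil2_11.2 and to 4 without wt_p1 or neil2_12; in neil2 with BSO to 5 without wt_1.1 and to 3 without wt_p1, neil2_11.1 or neil2_11.2; and in neil123 in media to 0 without wt_1.1B, wt_1.3B, neil123_1A or neil123_2A and to 1 without wt_1.1A, neil123_1B or neil123_2B. The counts with a library left out were not set beside the shares of all genes in the same fits. The comparisons in media and with BSO use different libraries, but these are paired by replicate name and deviated together (r = 0.193 to 0.849). Media and BSO results of a knockout are thus not independent. Within a treatment neil1 and neil2 share their wt libraries, and so do neil3 and neil123.

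**Figure D1:**
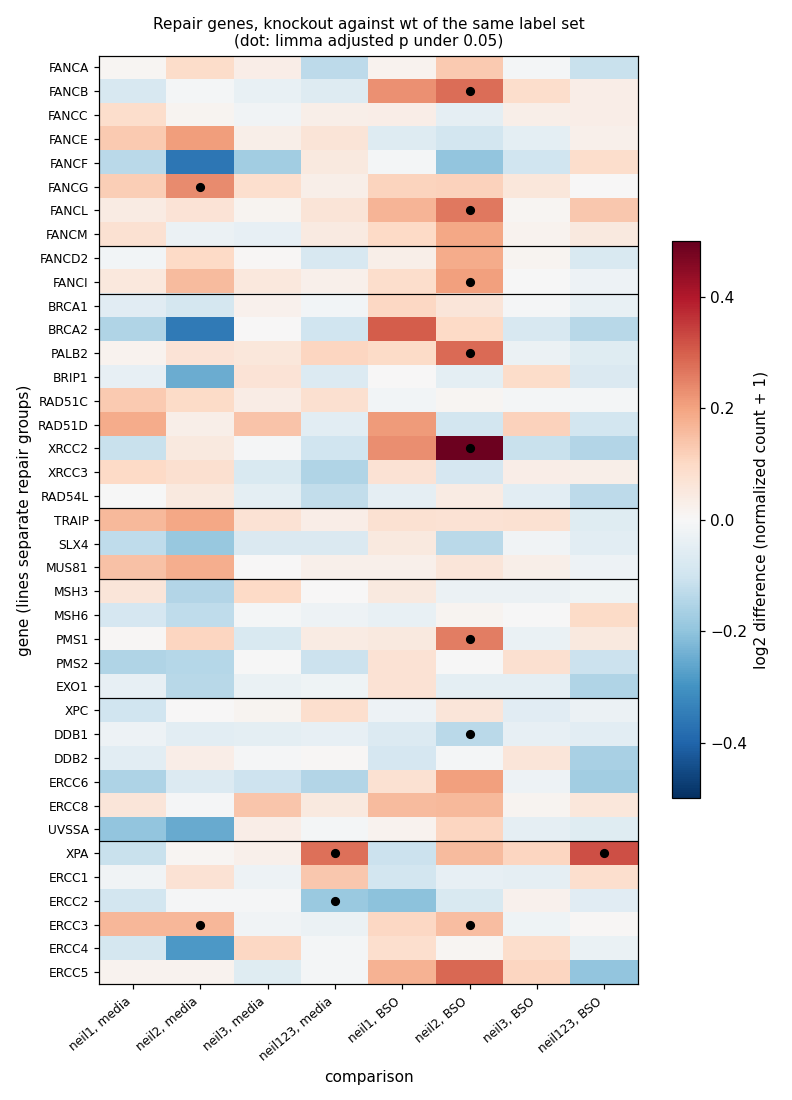
Heat map of the log2 difference in normalized read count (+ 1) between each knockout and wt of its own label set, for the 39 repair genes (rows, by repair group) in 8 comparisons (columns), with a dot where limma's adjusted p was under 0.05. All 13 dots stand in the neil2 and neil123 columns.

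BSO moved more of them, by small amounts. Of the 39 genes 9 rose and 9 fell in wt over its 7 pairs of libraries, 46.2% of them against 35.4% of all genes tested (17.7% upward and 17.7% downward). The risers were FANCC, FANCE, FANCI, BRIP1, RAD51C, RAD51D, TRAIP, EXO1 and DDB2, and the fallers FANCB, FANCL, FANCM, XRCC2, SLX4, MSH6, XPA, ERCC2 and ERCC5. In neil1 3 rose and 3 fell (15.4%; all genes 11%), and in neil2 1 rose and 1 fell (5.13%; all genes 8.46%). In neil3 5 rose and 4 fell (23.1%; all genes 24%), and in neil123 1 rose and 3 fell (10.3%; all genes 11.7%). No gene was called up in 1 genotype and down in another, and the largest called change was that of ERCC5 in neil123. The median change of the 39 in wt was -0.02, and that of all genes tested was -0.00. With equal totals the calls of DDB2, EXO1 and RAD51D in neil1 and of FANCE in wt were lost, and with no filter those of DDB2 and EXO1 in neil1 and of FANCL in wt. With 1 mean per line the calls of FANCI in wt and of EXO1 and RAD51D in neil1 were lost. So were those of FANCC, PMS2, XPA and XRCC2 in neil3 and of BRIP1, ERCC2, ERCC5 and XPA in neil123. Without the pairing, members called numbered 8, 1, 0, 2 and 0 in wt, neil1, neil2, neil3 and neil123. Leaving out 1 pair brought the count to 0 (without neil1_12) or 3 (without neil1_13.2) in neil1, to 1 (without neil2_11.1 or neil2_12) in neil2, to 5 (without neil3_2A) in neil3 and to 1 (without neil123_1A or neil123_1B) in neil123. No call was made in any of the 17 comparisons for 12 of the 39: FANCA, FANCF, FANCD2, BRCA1, XRCC3, RAD54L, MUS81, MSH3, XPC, ERCC6, ERCC8 and ERCC1. That count was not set beside one over all genes. Nor were the counts without the pairing or with a pair left out set beside those of all genes in the same fits.

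**Figure D2:**
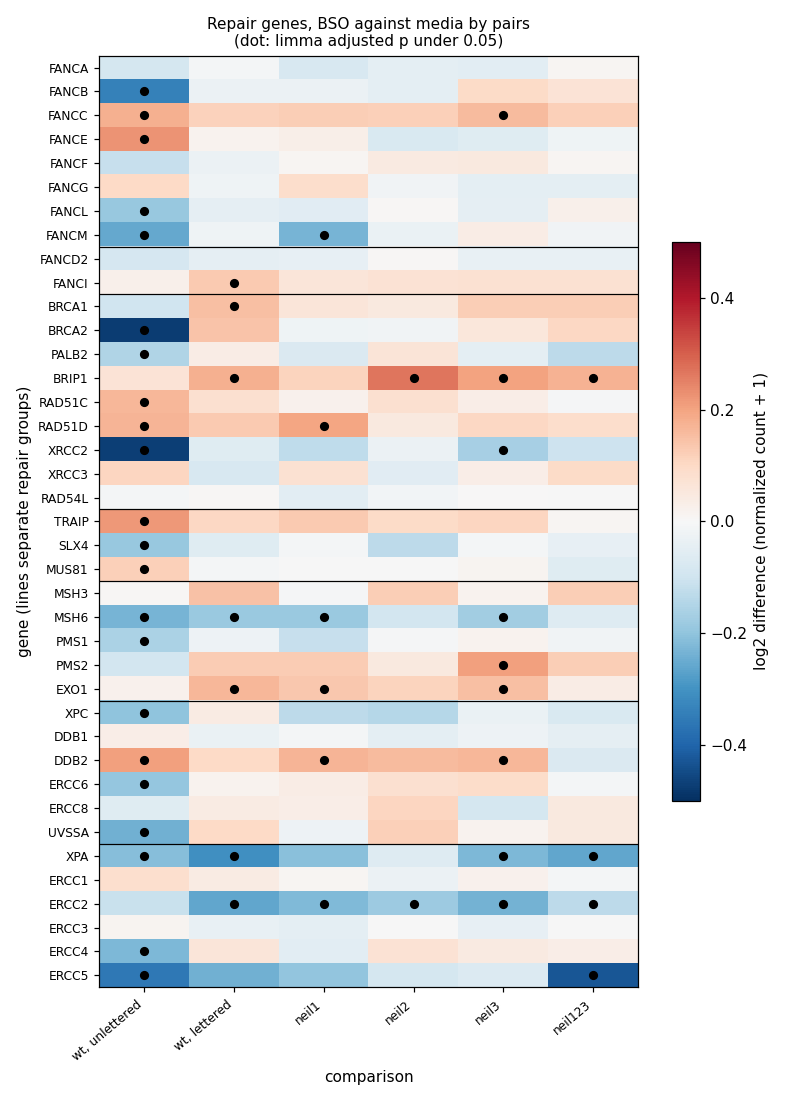
Heat map of the log2 difference in normalized read count (+ 1) between BSO and media, by pairs, for the 39 repair genes (rows, by repair group) in the 2 label sets of wt and in the 4 knockouts (columns), with a dot where limma's adjusted p was under 0.05. ERCC2 is below 0 in every column, XRCC2 and BRCA2 are darkest in unlettered wt (-0.47 each), and BRIP1 is above 0 in every column.

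In nucleotide excision repair, ERCC2 and XPA were lower with BSO in nearly every pair of libraries. ERCC2 (XPD) unwinds the DNA around a lesion as part of TFIIH, and XPA checks the damage and holds the opened strands. ERCC2 was lower with BSO in 21 of 21 pairs of libraries and fell in every genotype. XPA was lower in 20 of 21 pairs, the exception being neil2_11.2, and fell in wt, neil3 and neil123. ERCC2 lies at chr19:45349837-45370918 (GRCh38, minus strand) and XPA at chr9:97674909-97697357 (minus strand).

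In wt the ERCC2 level in media ran from 1776 to 2339 with a median of 2103, and with BSO from 1633 to 1937 with a median of 1787. The ranges of the groups overlapped, while each pair moved down, by -0.35 to -0.08. The change was -0.20 ± 0.03 (adjusted p = 1.404e-05), and it came to -0.26 ± 0.04 (adjusted p = 2.6e-05) in lettered wt and -0.11 ± 0.05 (adjusted p = 0.0818) in unlettered wt. In neil1 ERCC2 stood at 1801, 1571 and 1696 in media and 1495, 1378 and 1467 with BSO, every BSO library below every media library, and fell (-0.22 ± 0.05, adjusted p = 0.00218). In neil3 all media libraries (2181, 2264, 2231 and 2242) lay above all BSO libraries (1919, 1957, 1753 and 1955), a change of -0.24 ± 0.04 (adjusted p = 8.97e-05). In neil2 the levels were 1724, 1925 and 1728 in media and 1540.1, 1683 and 1514 with BSO, with no overlap and a change of -0.18 ± 0.05 (adjusted p = 0.0152). The neil123 libraries read 1983, 2227, 1824 and 1867 in media and 1819.6, 1786, 1782 and 1803 with BSO, where 1819.6 lay just under 1824.4 (-0.13 ± 0.04, adjusted p = 0.0356). The neil1 call was lost without neil1_12 (down to -0.20, adjusted p up to 0.0606), the neil123 call without neil123_1A or neil123_1B (down to -0.07, adjusted p up to 0.413) and the neil2 call with any of its pairs left out (adjusted p up to 0.0981).

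ERCC2 was also the member that fell in neil123 against wt. In media lettered wt held 2283, 2339, 2103 and 2232, and neil123 held 1983, 2227, 1824 and 1867, so that 1 neil123 library lay inside the wt range and the others below it (-0.18 ± 0.05, adjusted p = 0.025). This call was lost without wt_1.1A, wt_1.1B, wt_1.3B, neil123_1A, neil123_2A or neil123_2B (down to -0.15, adjusted p up to 0.129), with 1 mean per line and with all wt libraries and a term for the label set, and with BSO the difference was -0.06 ± 0.05 (adjusted p = 0.592).

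XPA moved in both directions, lower with BSO and higher in neil123. In media it read 411, 437 and 423 in unlettered wt and 376, 352, 404 and 308 in lettered wt. With BSO it read 393, 376 and 329.8 in unlettered wt and 302, 296, 288 and 273 in lettered wt (-0.27 ± 0.05, adjusted p = 0.000105 over all 7 pairs). In each label set of wt every BSO library lay below every media library. It fell by 0.22 ± 0.07 in neil3 (adjusted p = 0.0123) and by 0.26 ± 0.07 in neil123 (adjusted p = 0.0078). The neil3 call was lost without neil3_2A (down to -0.21, adjusted p up to 0.057), and the neil123 call without neil123_1A (down to -0.19, adjusted p up to 0.127). In neil1 the change was -0.21 ± 0.08 (adjusted p = 0.0731) and in neil2 it was -0.07 ± 0.08 (adjusted p = 0.67).

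Against wt, the neil123 libraries held more XPA RNA in both conditions. In media neil123 read 460.2, 434, 431 and 412 (434 ± 19.8, mean ± SD, n = 4) and lettered wt 376, 352, 404 and 308 (359.9 ± 40.5, n = 4). All neil123 libraries lay above all wt libraries, a rise of 0.28 ± 0.08 (adjusted p = 0.0361). With BSO neil123 read 332, 381, 368 and 369.9 (363 ± 21.5) and wt 302, 296, 288 and 273 (289.6 ± 12.6), again without overlap (0.32 ± 0.08, adjusted p = 0.0106). The media call was lost without wt_1.1B, wt_1.3B, neil123_1A, neil123_1B or neil123_2A (down to 0.20, adjusted p up to 0.205), with equal totals and with 1 mean per line; the BSO call passed with each library left out and was lost with 1 mean per line. In neil3, which shares the lettered wt libraries, XPA differed by 0.03 ± 0.08 (adjusted p = 1) in media and 0.11 ± 0.08 (adjusted p = 1) with BSO.

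**Figure D3:**
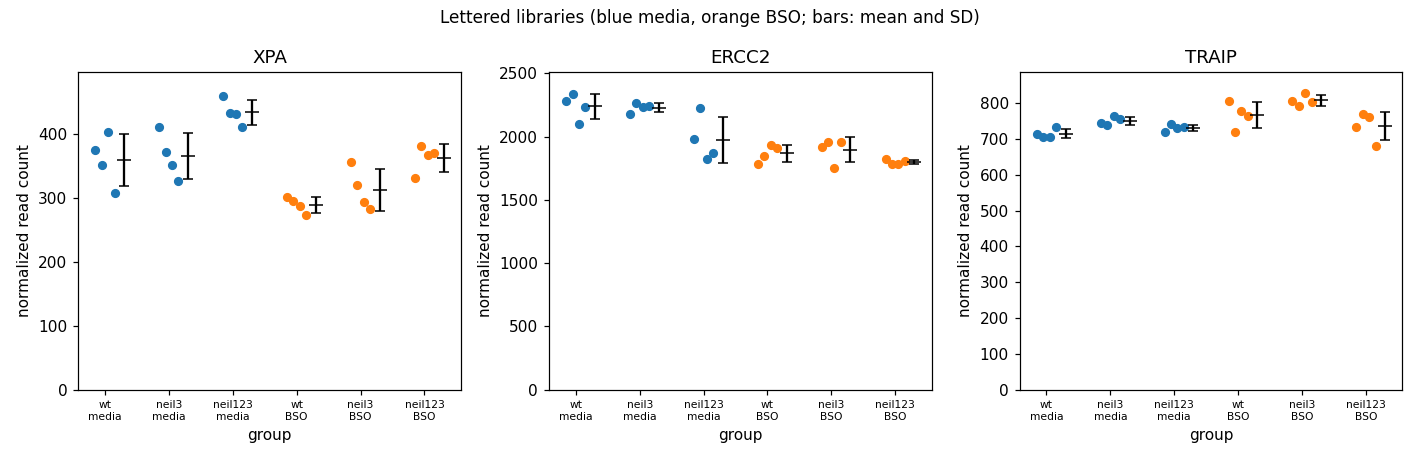
Normalized read counts of XPA, ERCC2 and TRAIP in each lettered library of wt, neil3 and neil123 in media (blue) and BSO (orange), with bars for mean and SD (n = 4). The neil123 points of XPA lie above the wt points in media (412 to 460.2 against 308 to 404) and with BSO.

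ERCC5 (XPG), the nuclease that cuts on the 3′ side of the lesion, was lower with BSO in 18 of 21 pairs from a low level. In media it read 101, 93.2 and 109 in unlettered wt and 112, 119, 117 and 121 in lettered wt. With BSO it read 74.7, 73.3 and 88.2 in unlettered wt and 103, 88.9, 108 and 98.1 in lettered wt, below media within each set (-0.29 ± 0.09, adjusted p = 0.00873). In neil123 it went from 123, 118, 108 and 118 to 87.1, 64.7, 100.2 and 98.5 (-0.43 ± 0.11, adjusted p = 0.0117), a call lost without neil123_1A or neil123_1B (down to -0.28, adjusted p up to 0.191). Exons of the readthrough gene BIVM-ERCC5 cover 63.2% of the ERCC5 exons on the same strand, so reads between these genes cannot be assigned with certainty. ERCC3 (XPB) opens the bubble together with ERCC2, and rose in neil2 in media, 2064 ± 48.9 against 1839 ± 93.3 in wt (0.17 ± 0.05, adjusted p = 0.0299), and with BSO (0.15 ± 0.05, adjusted p = 0.0381). The media call was lost without wt_1.1, wt_1.3, neil2_11.1, neil2_11.2 or neil2_12 (down to 0.13, adjusted p up to 0.15), with equal totals and with edgeR, and the BSO call without wt_1.1, wt_p1, neil2_11.1, neil2_11.2 or neil2_12 (down to 0.13, adjusted p up to 0.132), with no filter, with equal totals, with edgeR and with 1 mean per line. ERCC4 (XPF), the nuclease of the 5′ side, passed in 1 of the 17 comparisons, a test of unequal BSO changes given further on, and ERCC1, its partner, passed in none. Exons on the other strand overlap those of ERCC2 (KLC3, 8.29%), ERCC4 (AC010401.1, 25.7%) and ERCC1 (CD3EAP, 28.6%).

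Of the genes that recognise lesions, DDB2 was the one that BSO raised. DDB2 binds ultraviolet photoproducts and is a known p53 target, and DDB1 joins it to a ubiquitin ligase. In wt DDB2 ran from 1087 to 1187 in media (median 1145) and from 1200.1 to 1347 with BSO (median 1238), without overlap (0.14 ± 0.04, adjusted p = 0.0026). It also rose in neil1 (0.17 ± 0.06, adjusted p = 0.0428) and neil3 (0.17 ± 0.05, adjusted p = 0.0109), was higher in 19 of 21 pairs, and changed by 0.16 ± 0.06 (adjusted p = 0.0738) in neil2 and -0.07 ± 0.05 (adjusted p = 0.385) in neil123. The neil1 call was lost without neil1_12 or neil1_13.2 (down to 0.14, adjusted p up to 0.247) and the neil3 call without neil3_1A or neil3_2B (down to 0.15, adjusted p up to 0.0649). DDB1 fell in neil2 with BSO, 15335 ± 578 against 16823 ± 265 in wt (-0.13 ± 0.05, adjusted p = 0.0417), a call lost without wt_1.1, wt_1.3, wt_p1, neil2_11.1 or neil2_11.2 (down to -0.10, adjusted p up to 0.21), with no filter, with 1 mean per line and with the label set as a term. XPC, which senses distorted helices, and ERCC6, ERCC8 and UVSSA, which act at stalled RNA polymerase, passed in no knockout comparison and in no BSO comparison over all pairs of a genotype. In the 3 unlettered wt pairs alone XPC (-0.20 ± 0.07, adjusted p = 0.0365), ERCC6 (-0.19 ± 0.07, adjusted p = 0.0287) and UVSSA (-0.24 ± 0.06, adjusted p = 0.00341) fell, and in the 4 lettered pairs they changed by 0.04 ± 0.06 (adjusted p = 0.715), 0.02 ± 0.06 (adjusted p = 0.884) and 0.10 ± 0.05 (adjusted p = 0.199). Their levels over all libraries were 629.6 to 890.4 for XPC, 401 to 559 for ERCC6, 407 to 594 for ERCC8 and 524 to 924 for UVSSA.

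The promoter windows of 4 members that BSO moved alike in most pairs are shown, so that their sequences can be compared beside the direction of change. ERCC2 and XPA went down, and BRIP1 and DDB2 went up. Each is the 250 bases before the RefSeq gene start in GRCh38.p14, read 5′ to 3′ on the gene's strand: ERCC2 chr19:45370574-45370823 (minus), XPA chr9:97697341-97697590 (minus), BRIP1 chr17:61863529-61863778 (minus) and DDB2 chr11:47214204-47214453 (plus; the first of its starts). The gene positions given in the text are from GENCODE v29, whose gene starts differ from these. By the GENCODE starts the ERCC2 window lies inside the gene and the XPA window overlaps the start of the gene. Capitals mark matches on either strand to CCAAT (reverse ATTGG), to GGGCGG (reverse CCGCCC) and to TTTGAA (reverse TTCAAA).
ERCC2: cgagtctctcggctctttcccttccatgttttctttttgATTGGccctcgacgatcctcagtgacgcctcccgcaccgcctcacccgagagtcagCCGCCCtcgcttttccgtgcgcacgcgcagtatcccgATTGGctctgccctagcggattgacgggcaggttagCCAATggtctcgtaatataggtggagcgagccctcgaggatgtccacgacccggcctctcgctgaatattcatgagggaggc
XPA: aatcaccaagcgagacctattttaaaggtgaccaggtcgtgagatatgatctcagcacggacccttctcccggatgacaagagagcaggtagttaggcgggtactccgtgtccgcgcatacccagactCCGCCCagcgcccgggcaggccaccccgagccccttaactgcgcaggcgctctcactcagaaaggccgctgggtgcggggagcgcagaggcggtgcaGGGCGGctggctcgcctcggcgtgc
BRIP1: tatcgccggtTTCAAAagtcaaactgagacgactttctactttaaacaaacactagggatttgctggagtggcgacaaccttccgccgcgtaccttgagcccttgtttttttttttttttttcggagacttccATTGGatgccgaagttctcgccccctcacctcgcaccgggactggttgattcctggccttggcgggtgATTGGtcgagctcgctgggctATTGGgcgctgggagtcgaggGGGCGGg
DDB2: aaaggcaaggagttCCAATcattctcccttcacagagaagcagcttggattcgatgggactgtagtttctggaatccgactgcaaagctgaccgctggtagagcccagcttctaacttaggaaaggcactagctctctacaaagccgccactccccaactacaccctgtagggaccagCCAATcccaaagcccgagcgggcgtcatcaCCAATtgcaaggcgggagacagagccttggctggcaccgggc

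ERCC2 holds 3 CCAAT matches and 1 GGGCGG match, XPA 2 GGGCGG matches and no CCAAT, BRIP1 3 CCAAT, 1 GGGCGG and 1 TTTGAA, and DDB2 3 CCAAT. ERCC2, which fell, and DDB2 and BRIP1, which rose, thus share the same number of CCAAT matches. A window was found for 38 of the 39 members. CCAAT stood in 42.1% of these and in 33% of all 27305 windows, GGGCGG in 68.4% and 42.3%, and TGACNNNGC, the core of the antioxidant response element, in 10.5% and 11%. The E2F forms TTTCCCGC, TTTGGCGC and TTTCGCGC stood in 7.89% and 2.38%, TGACGTCA in 7.89% and 1.77%, TTTGAA in 5.26% and 13.6%, and TGATGNAA in 0% and 3.19%. A match describes the letters and is not evidence that a factor binds.

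**Figure D4:**
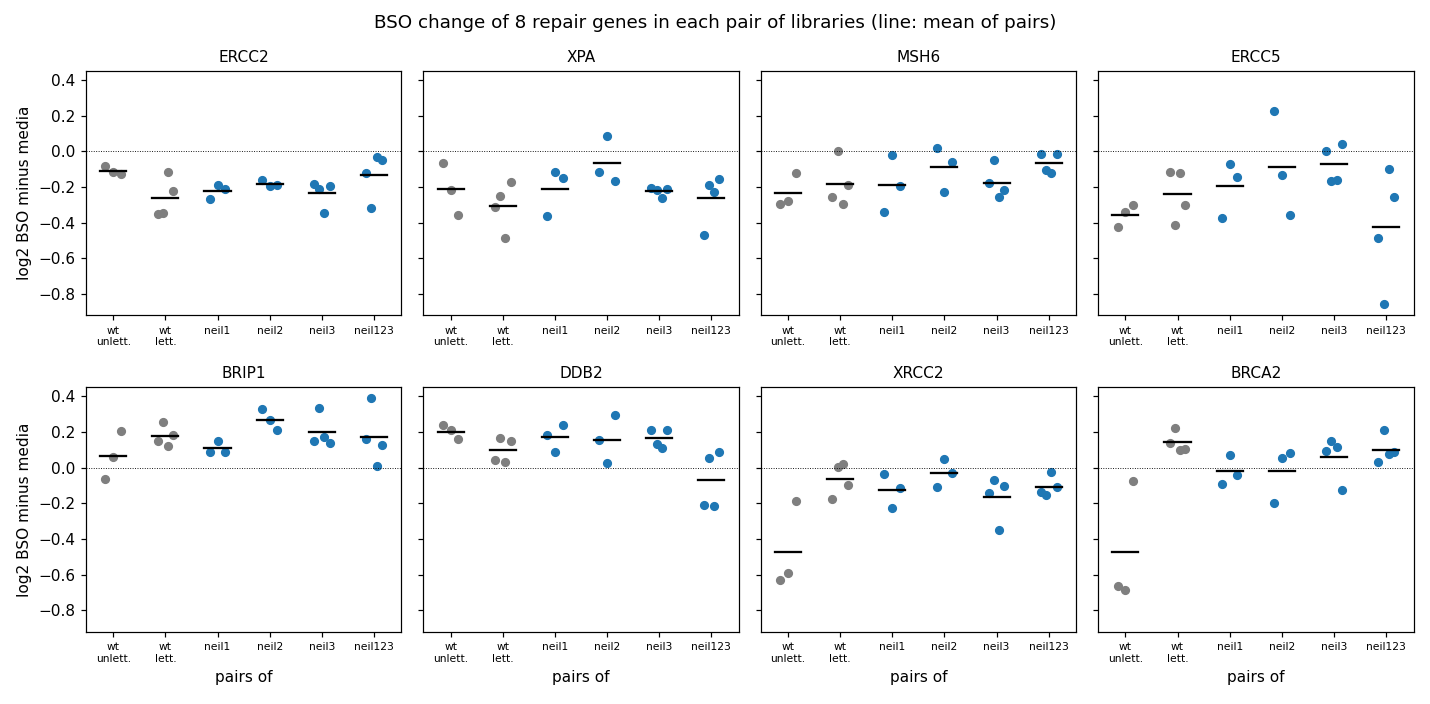
Log2 difference in normalized read count (+ 1), BSO minus media, in each of the 21 pairs of libraries (points) for 8 repair genes, by genotype and, in wt, by label set, with a line at the mean of the pairs. Every ERCC2 point lies below 0 (-0.35 to -0.03), BRIP1 lies above 0 in 20 of 21 pairs, and XRCC2 and BRCA2 are lowest in the unlettered wt pairs 1.1 and 1.3.

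Of the 8 genes of the Fanconi core complex 1 rose in neil2 in media and 2 rose with BSO, and 7 and 6 did not pass. Of all genes 11% and 15.8% passed in these comparisons (4.74% and 7.38% upward). In wt BSO raised 2 and lowered 3 of the 8, beside 35.4% of all genes (17.7% upward and 17.7% downward). FANCG, an adaptor of the complex, rose in neil2 in media: neil2 read 1357, 1468 and 1457 and unlettered wt 1151, 1183 and 1306, without overlap (0.24 ± 0.07, adjusted p = 0.0249). With BSO FANCL, the ubiquitin ligase subunit, rose in neil2, 876, 897 and 804 against 759, 699 and 687 (0.26 ± 0.08, adjusted p = 0.0204). FANCB, a partner of FANCL in the catalytic module, read 665, 635 and 574 in neil2 and 477, 539 and 526 in wt (0.28 ± 0.09, adjusted p = 0.0382). In all 3 genes every neil2 library lay above every wt library. The unlettered wt pairs themselves fell with BSO in FANCL (-0.19 ± 0.06, adjusted p = 0.0239) and FANCB (-0.34 ± 0.08, adjusted p = 0.00164). The calls were lost without wt_1.1, wt_1.3, neil2_11.2 or neil2_12 (down to 0.20, adjusted p up to 0.138) for FANCG, without wt_1.3, wt_p1, neil2_11.1 or neil2_11.2 (down to 0.23, adjusted p up to 0.103) for FANCL and without wt_1.1, wt_p1, neil2_11.1 or neil2_11.2 (down to 0.23, adjusted p up to 0.16) for FANCB. With equal totals FANCG and FANCB were lost, and FANCB was also lost with no filter, with 1 mean per line and with the label set as a term.

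BSO lowered FANCB, FANCL and FANCM in wt and raised FANCC and FANCE. FANCC, which supports the complex outside the catalytic module, was higher in 19 of 21 pairs and rose in wt (0.14 ± 0.03, adjusted p = 0.00125) and neil3 (0.16 ± 0.04, adjusted p = 0.00848; lost without neil3_2A, down to 0.14, adjusted p up to 0.0572). FANCE, which bridges the core to FANCD2, read 640.4, 686 and 724 in unlettered wt in media and 782, 827 and 785 with BSO, without overlap. In lettered wt it read 899, 758, 889 and 852 in media and 938, 831, 896 and 775 with BSO, with overlap. Over all pairs it rose (0.11 ± 0.04, adjusted p = 0.0206). FANCB went from 725, 694 and 545 to 477, 539 and 526 in unlettered wt, without overlap. In lettered wt it read 659, 604, 601 and 595 in media and 551, 641, 620.1 and 600.2 with BSO, with overlap, and over all pairs it fell (-0.16 ± 0.05, adjusted p = 0.0164). The wt falls of FANCL (-0.11 ± 0.04, adjusted p = 0.0481) and FANCM (-0.12 ± 0.04, adjusted p = 0.034), the translocase that loads the complex on DNA, were of the same order, and FANCM fell in neil1 too (-0.23 ± 0.07, adjusted p = 0.0246).

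Single pairs carried several of these wt calls. FANCE was lost without wt_1.1 or wt_1.3 (down to 0.08, adjusted p up to 0.146), FANCB without wt_1.1 or wt_1.3 (down to -0.09, adjusted p up to 0.216), FANCL without wt_1.1, wt_1.1A, wt_1.3, wt_1.3A or wt_p1 (down to -0.08, adjusted p up to 0.188) and FANCM without wt_1.1, wt_1.1A or wt_1.3 (down to -0.08, adjusted p up to 0.213), whereas FANCC passed with each wt pair left out. In neil1 FANCM was lost without neil1_12 (down to -0.13, adjusted p up to 0.461). FANCA (1268 to 1818 over all libraries) and FANCF (286 to 475) passed in no comparison.

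FANCI and FANCD2 form the clamp that the core complex modifies. FANCI, one of the best expressed members per exon length, was higher with BSO in 19 of 21 pairs. In media it read 7294, 6897 and 6674 in unlettered wt and 6857, 6749, 7036 and 6872 in lettered wt. With BSO it read 6976, 7179.5 and 7081 in unlettered wt and 7482, 7539, 7664 and 7409 in lettered wt. In lettered wt every BSO library lay above every media library (0.13 ± 0.03, adjusted p = 0.00345), and in unlettered wt the groups overlapped (0.03 ± 0.04, adjusted p = 0.629). The difference between these sets was 0.10 ± 0.05 (adjusted p = 0.159), and over all wt pairs FANCI rose (0.09 ± 0.02, adjusted p = 0.00631).

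In neil2 FANCI stood above wt with BSO, 8272, 7913 and 8291 against 6976, 7179.5 and 7081, without overlap (0.20 ± 0.06, adjusted p = 0.0111). In media the same comparison gave 7649, 7793 and 7809 against 7294, 6897 and 6674, also without overlap, and 0.16 ± 0.06 (adjusted p = 0.059). The BSO call passed with each library left out and was lost with 1 mean per line. FANCD2 did not pass anywhere. In media it read 2849, 2924 and 2640.2 in unlettered wt and 2616, 2433, 2878 and 2547 in lettered wt, 2689.9, 2769.7 and 2869 in neil1 and 2915, 2929 and 3157 in neil2. It read 2622, 2417, 2766 and 2694 in neil3 and 2646, 2336, 2485 and 2427 in neil123. With BSO it read 2562, 2833 and 2549 in unlettered wt and 2674, 2411, 2714 and 2359 in lettered wt, 2545, 2716 and 2844 in neil1, 3066, 2961 and 3000.2 in neil2, 2605, 2371, 2806 and 2464 in neil3 and 2509.5, 2209, 2509.9 and 2408 in neil123. Each knockout overlapped its own wt, except that neil2 with BSO lay above unlettered wt (0.19 ± 0.07, adjusted p = 0.0571).

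In homologous recombination the largest knockout difference of all members was that of XRCC2, a subunit of a protein complex that acts early in recombination (chr7:152644779-152676165, GRCh38, minus strand). With BSO neil2 read 849, 912 and 827 (863 ± 44.5, mean ± SD, n = 3) and unlettered wt 584, 624 and 633 (614 ± 26.1, n = 3), every neil2 library above every wt library. XRCC2 was thus higher by 0.49 ± 0.10 (adjusted p = 0.00239), and the call passed with each library left out and under every alternative run. In media the groups overlapped, 913, 881 and 845 in neil2 and 905, 941 and 721 in wt (0.05 ± 0.10, adjusted p = 0.81). Between media and BSO XRCC2 changed by -0.03 ± 0.06 (adjusted p = 0.845) in neil2, while it fell in wt.

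That wt fall was uneven among the wt libraries. In the unlettered pairs 1.1, 1.3 and p1 XRCC2 changed by -0.63, -0.59 and -0.19, and the lettered wt libraries read 1069.5, 1088, 1069 and 1166 in media and 947, 1092, 1084 and 1091 with BSO (changes of -0.18 to 0.02). Over all wt pairs it fell by 0.24 ± 0.04 (adjusted p = 6.143e-05), with -0.47 ± 0.06 (adjusted p = 2.431e-06) in the unlettered and -0.06 ± 0.06 (adjusted p = 0.484) in the lettered pairs. In neil1 it read 664, 789 and 928 in media and 647, 674 and 857 with BSO (-0.13 ± 0.06, adjusted p = 0.23). In neil3 it fell (-0.17 ± 0.06, adjusted p = 0.03), from 1141, 1035, 1072 and 1129 to 1036, 986, 841 and 1051, a call lost without neil3_1A or neil3_2A (down to -0.10, adjusted p up to 0.273). XRCC2 was lower with BSO in 18 of 21 pairs.

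PALB2, which ties BRCA1 to BRCA2 at a break, was the other recombination gene that differed in neil2. With BSO it read 915, 911 and 866 in neil2 and 746, 734 and 729 in unlettered wt, without overlap (0.28 ± 0.09, adjusted p = 0.0224), and in media 792, 939 and 846 in neil2 and 858, 838 and 758 in wt, with overlap (0.07 ± 0.09, adjusted p = 0.647). The BSO call was lost without wt_1.3, wt_p1, neil2_11.1 or neil2_11.2 (down to 0.27, adjusted p up to 0.0828). In the unlettered wt pairs PALB2 itself fell with BSO (-0.15 ± 0.06, adjusted p = 0.046). The neil2 pairs changed by 0.21, -0.04 and 0.03, and the lettered wt pairs by 0.04 ± 0.05 (adjusted p = 0.668). BRCA2, a mediator of homologous recombination (chr13:32315474-32400266, plus strand), read 839, 827 and 1091 in neil2 and 779.6, 811 and 973 in wt with BSO and passed in no knockout comparison.

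**Figure D5:**
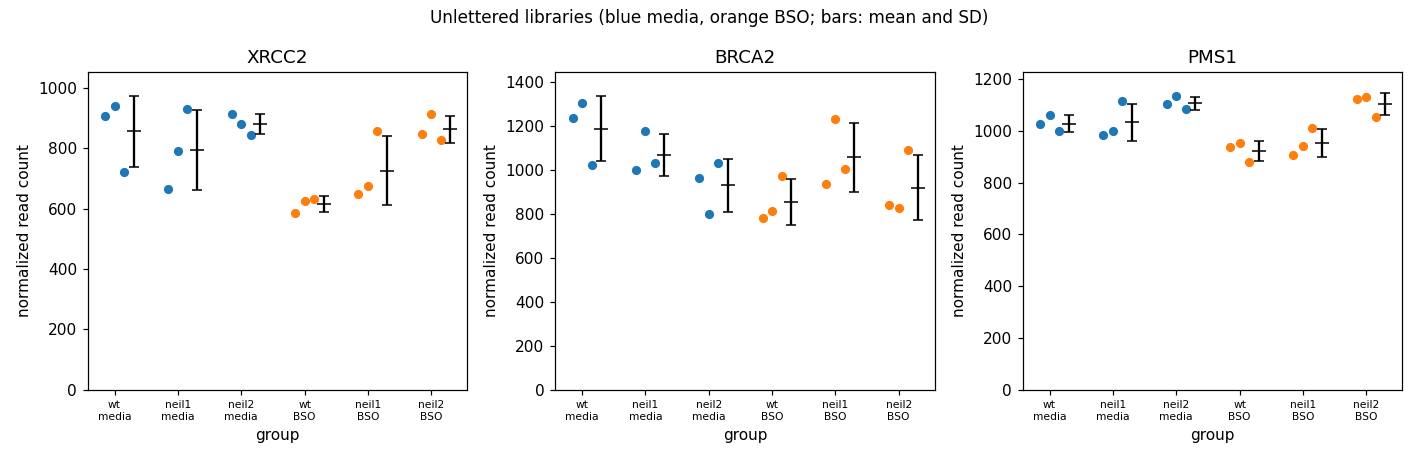
Normalized read counts of XRCC2, BRCA2 and PMS1 in each unlettered library of wt, neil1 and neil2 in media (blue) and BSO (orange), with bars for mean and SD (n = 3). With BSO the neil2 points of XRCC2 (827 to 912) and of PMS1 lie above the wt points, and the wt points of XRCC2 and BRCA2 lie lower than in media.

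BRIP1, the helicase partner of BRCA1 (chr17:61681266-61863521, minus strand), was the recombination gene that rose with BSO in most genotypes. It was higher in 20 of 21 pairs, the exception being wt_1.1. In neil2 it went from 1182, 1048 and 1273 to 1484, 1262 and 1472, each pair up though the groups overlapped (0.27 ± 0.06, adjusted p = 0.00192). In neil3 it went from 1384, 1181, 1267 and 1261 to 1536, 1493, 1431 and 1389, without overlap (0.20 ± 0.05, adjusted p = 0.0022). In neil123 it went from 1201, 985, 1226 and 1233 to 1346, 1290.1, 1236 and 1346, also without overlap (0.17 ± 0.05, adjusted p = 0.0151). In media it read 1536, 1341 and 1281 in unlettered wt and 1193, 1114, 1304 and 1242 in lettered wt. With BSO it read 1469, 1399 and 1481 in unlettered wt and 1326, 1330.3, 1420.3 and 1408 in lettered wt (0.13 ± 0.04, adjusted p = 0.00479 over all 7 pairs). The lettered wt groups did not overlap, and the unlettered ones did. In neil1 the levels were 1249, 1548 and 1253 in media and 1329.6, 1717 and 1334 with BSO (0.11 ± 0.06, adjusted p = 0.215). The neil123 call was lost without neil123_1A or neil123_1B (down to 0.10, adjusted p up to 0.267), and those in wt, neil2 and neil3 passed with each pair left out.

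Of the genes whose products share a complex with XRCC2, BSO raised RAD51C (0.12 ± 0.03, adjusted p = 0.00358) and RAD51D (0.15 ± 0.04, adjusted p = 0.00525) in wt, so 2 of its partners rose where XRCC2 fell. RAD51D was higher in 18 of 21 pairs and rose in neil1 (0.20 ± 0.06, adjusted p = 0.0362), a call lost with any neil1 pair left out (adjusted p up to 0.307). Both wt calls passed with each pair left out. BRCA1, which starts end resection and recruits PALB2, was higher in 17 of 21 pairs and rose in the lettered wt pairs (0.15 ± 0.05, adjusted p = 0.0234; over all wt pairs 0.04 ± 0.04, adjusted p = 0.397). XRCC3 (712 to 1111) and RAD54L (1131 to 1455) passed nowhere; exons of KLC1 on the other strand cover 76.7% of those of XRCC3.

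TRAIP, the ligase that marks the helicase at converged forks before NEIL3 acts, did not differ between neil3 and wt past the threshold. In media neil3 read 745, 739, 765 and 755 and lettered wt 713, 706, 706 and 733, every neil3 library above every wt library, by 0.07 ± 0.06 (adjusted p = 1). With BSO neil3 read 808, 793, 830.1 and 805 and wt 806, 720.1, 779 and 765, with overlap (0.08 ± 0.06, adjusted p = 1). In neil123 they were 720.1, 742, 731 and 732 in media and 733, 770.3, 761 and 681 with BSO (0.03 ± 0.06, adjusted p = 0.836 and -0.06 ± 0.06, adjusted p = 0.628). In the unlettered set neil1 read 569, 542 and 595, neil2 533, 647 and 569 and wt 506, 487 and 532 in media. There too every neil1 and neil2 library lay above every wt library, and neither comparison passed. With BSO neil1 read 624, 551 and 700.4, neil2 642, 641 and 581 and wt 570.2, 559 and 644. The lettered wt libraries held more TRAIP RNA than the unlettered ones in media (0.49 ± 0.07, adjusted p = 3.058e-07), and that difference was larger than any between a knockout and its own wt.

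With BSO TRAIP was higher in 19 of 21 pairs and rose in wt (0.15 ± 0.04, adjusted p = 0.00183), a call that passed with each pair left out and under every alternative that used all wt pairs. SLX4, the scaffold of the unhooking nucleases, fell in wt (-0.12 ± 0.04, adjusted p = 0.0255) and was lost without wt_1.1, wt_1.1B or wt_1.3 (down to -0.08, adjusted p up to 0.148). MUS81, a nuclease of stalled forks and joint molecules, ranged over 876 to 1766 over all libraries and passed in none of the 17 comparisons. In media it stood higher in lettered than in unlettered wt (0.76 ± 0.07, adjusted p = 1.856e-10). With BSO it rose in the unlettered wt pairs (0.12 ± 0.05, adjusted p = 0.048) and changed by -0.01 ± 0.04 (adjusted p = 0.885) in the lettered ones.

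In mismatch repair PMS1, a MutL homolog whose role in repair is minor, rose in neil2 with BSO, and MSH6, the MutS subunit that reads base mismatches, fell with BSO. PMS1 (chr2:189784085-189877629, plus strand) read 1121, 1132 and 1053 in neil2 with BSO (1102 ± 42.8, mean ± SD, n = 3) and 936, 952 and 878 in unlettered wt (922 ± 39.4, n = 3), without overlap (0.26 ± 0.06, adjusted p = 0.00434). In media it read 1102, 1133 and 1082 in neil2 and 1025, 1061 and 997 in wt, also without overlap (0.11 ± 0.06, adjusted p = 0.262). The BSO call passed with each library left out and under every alternative run. In the unlettered wt pairs PMS1 itself fell with BSO (-0.16 ± 0.05, adjusted p = 0.0175). The neil2 pairs changed by 0.02, -0.00 and -0.04, and the lettered wt pairs by -0.03 ± 0.04 (adjusted p = 0.736).

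MSH6 was lower with BSO in 19 of 21 pairs. In unlettered wt its mean went from 7377 ± 607 to 6266 ± 123 (n = 3), and in lettered wt from 5496 ± 574 to 4819.8 ± 213 (n = 4). It fell by 0.21 ± 0.04 in wt (adjusted p = 3.561e-05), by 0.19 ± 0.05 in neil1 (adjusted p = 0.0222) and by 0.18 ± 0.05 in neil3 (adjusted p = 0.0058). The wt call passed with each pair left out. The neil1 call was lost without neil1_12 or neil1_13.2 (down to -0.11, adjusted p up to 0.442) and the neil3 call without neil3_2A (down to -0.15, adjusted p up to 0.0556). Exons of FBXO11 on the other strand cover 16.2% of those of MSH6.

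EXO1, the nuclease that removes the mismatched stretch and also resects breaks, was higher in 18 of 21 pairs and rose in wt (0.10 ± 0.03, adjusted p = 0.00569), neil1 (0.13 ± 0.04, adjusted p = 0.046) and neil3 (0.15 ± 0.04, adjusted p = 0.0041). The neil1 call was lost without neil1_12 or neil1_13.1 (down to 0.10, adjusted p up to 0.357), and the others passed with each pair left out. PMS2, the endonuclease subunit, rose in neil3 (0.21 ± 0.05, adjusted p = 0.00372), a call lost with 1 mean per line. In wt it changed by 0.03 ± 0.04 (adjusted p = 0.571), and near-identical pseudogenes make its counts uncertain. MSH3, the partner for small loops, ranged over 619 to 948 and passed nowhere.

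For 5 members the BSO change differed between a knockout and unlettered wt. In neil1 these were BRCA2 (0.45 ± 0.11, adjusted p = 0.0233) and XRCC2 (0.34 ± 0.09, adjusted p = 0.0432), beside 2.21% of all genes. In neil2 they were BRCA2 (0.45 ± 0.11, adjusted p = 0.00783), XRCC2 (0.44 ± 0.09, adjusted p = 0.00437), UVSSA (0.36 ± 0.09, adjusted p = 0.00962) and ERCC4 (0.30 ± 0.08, adjusted p = 0.0217), with a more positive change than wt, and FANCE (-0.30 ± 0.08, adjusted p = 0.0127), with a more negative one, beside 10.4% of all genes. These comparisons share the same 3 wt pairs. In neil3 and neil123, set against lettered wt, no member passed by limma or by edgeR, and 0% and 0.0349% of all genes passed by limma. At an unadjusted p under 0.05 stood 0 and 5 members, counts not set beside the share of all genes at that p.

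In each of these genes the wt side moved. BRCA2 went in unlettered wt from 1235, 1305 and 1023 to 779.6, 811 and 973, so that pairs 1.1 and 1.3 changed by -0.66 and -0.69 and p1 by -0.07. In neil1 it read 998, 1175 and 1029 in media and 936, 1233 and 1002 with BSO, and in neil2 961, 797 and 1029 in media and 839, 827 and 1091 with BSO. UVSSA went in unlettered wt from 702, 695 and 658 to 534, 555 and 659, and in neil2 from 599, 607 and 524 to 723, 605 and 557. ERCC4 went in unlettered wt from 734, 677 and 668 to 599.7, 582 and 598, without overlap, and in neil2 from 557, 541 and 606 to 632, 544 and 619.9, with overlap. FANCE in neil2 read 688, 825 and 867 in media and 693, 778 and 777 with BSO. In lettered wt BRCA2 went the other way, from 1118, 907, 1166 and 1023 to 1230.3, 1059.6, 1250.2 and 1101, higher in each pair (0.10 to 0.22).

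Tested directly, the BSO change of wt differed between its own label sets for 14.7% of all genes, with BRCA2 (0.62 ± 0.10, adjusted p = 0.000183), XRCC2 (0.41 ± 0.09, adjusted p = 0.00197), UVSSA (0.34 ± 0.08, adjusted p = 0.00593), ERCC4 (0.28 ± 0.08, adjusted p = 0.0147) and FANCE (-0.21 ± 0.07, adjusted p = 0.0496) among them. BRCA1 (0.25 ± 0.07, adjusted p = 0.0211) and FANCB (0.31 ± 0.11, adjusted p = 0.0455) differed too. All 7 calls of unequal BSO change in neil1 and neil2 were lost without wt_1.1, and all but that of XRCC2 in neil2 were also lost without wt_1.3. Without wt_p1, 9 members passed in neil1 and 11 in neil2, counts not set beside the share of all genes in that fit. Without wt_1.1 or 1.3 the difference came down to 0.35 for BRCA2 in neil1 and 0.35 in neil2 (adjusted p up to 0.289 and 0.0951). The lowest left-out values were 0.26 and 0.36 for XRCC2 (adjusted p up to 0.369 and 0.0583), 0.28 for UVSSA (0.111), 0.24 for ERCC4 (0.136) and -0.26 for FANCE (0.0996). With only the 3 unlettered wt pairs 22 members were called with BSO (7 up, 15 down; all genes 31.7%), and with only the 4 lettered pairs 7 were called (4 up, 3 down; all genes 23%). These were subsets chosen after the values were seen.

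In the unlettered wt pairs the BSO change also went with gene length. Over 13322 of the 14331 genes with a known exon length its median was 0.09 in genes under 3784 exon bases, 0.03 in the middle group and -0.07 in genes over 6545 bases, with a Spearman correlation of -0.331 across genes, which share libraries and are not independent. In the other genotypes and in lettered wt that correlation lay between -0.036 and 0.072. BRCA2, UVSSA and ERCC4 are of the long group (12273, 15773 and 8460 bases), XRCC2 of the middle one (4853 bases), and FANCE of the short one (2692 bases). In media neil1 and neil2 against unlettered wt gave -0.256 and -0.273, and with BSO 0.15 and 0.017. The part of length in these results was not tested.

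The other genes of these pathways were read from lists with the same tests. With BSO in wt 1 rose of 11 other Fanconi genes, and 5 rose and 4 fell of 28 other recombination genes. Of 11 other mismatch repair genes 3 rose and 1 fell, and of 19 other excision repair genes 5 rose and 1 fell. Of all genes 35.4% passed there (17.7% upward and 17.7% downward). BARD1, the partner of BRCA1, rose in wt (0.20 ± 0.03, adjusted p = 4.139e-05), neil2, neil3 and neil123, with 0.11 ± 0.05 (adjusted p = 0.186) in neil1, and RAD52, an annealing factor, fell in wt (-0.22 ± 0.06, adjusted p = 0.00227). GTF2H1, a core subunit of the TFIIH complex that holds ERCC2 and ERCC3, rose in wt (0.16 ± 0.03, adjusted p = 5.796e-05), neil1 (0.15 ± 0.04, adjusted p = 0.0175), neil2 (0.14 ± 0.04, adjusted p = 0.0356), neil3 (0.18 ± 0.04, adjusted p = 0.000531) and neil123 (0.19 ± 0.04, adjusted p = 0.000886), while ERCC2 fell in each. MAD2L2 (0.08 ± 0.03, adjusted p = 0.049) was the Fanconi gene, and LIG1 (0.11 ± 0.03, adjusted p = 0.00271) had the largest rise among the mismatch repair genes.

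In the knockouts BSO moved 11% (neil1), 8.46% (neil2), 24% (neil3) and 11.7% (neil123) of all genes. Of the 11 Fanconi, 28 recombination, 11 mismatch and 19 excision repair genes, those that rose numbered 0, 0, 0 and 2 in neil1, 0, 1, 0 and 1 in neil2, 1, 3, 0 and 2 in neil3, and 0, 4, 0 and 1 in neil123. Those that fell numbered 0, 1, 1 and 0 in neil1, 1, 0, 0 and 0 in neil2, 0, 2, 1 and 3 in neil3, and 0, 1, 0 and 0 in neil123. Against wt, neil1, neil3 and neil123 gave no call on these 4 lists in either condition. In neil2 in media 0, 1, 1 and 2 rose and 0, 0, 0 and 1 fell, beside 11% of all genes (4.74% upward). With BSO 1, 5, 3 and 1 rose in neil2 and 1, 0, 2 and 3 fell, beside 15.8% (7.38% upward and 8.43% downward). RAD51AP1, which promotes strand invasion, rose in neil2 in media (0.24 ± 0.07, adjusted p = 0.0362) and with BSO (0.31 ± 0.07, adjusted p = 0.00536), and RAD52 rose with BSO (0.52 ± 0.15, adjusted p = 0.0155). Of the mismatch genes MSH5, a meiotic MutS homolog, had the largest change with BSO (0.70 ± 0.20, adjusted p = 0.0173). GTF2H2 of TFIIH read 21.3 to 236 in neil2 in media and 199 to 257 in wt (-2.01 ± 0.50, adjusted p = 0.00891); it has near-identical copies, which makes its counts uncertain.

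Replication, mitosis and p53 genes were read beside the repair genes. With BSO in wt 5 of 28 replication and mitosis genes rose and 8 fell, among them CENPE (-0.33 ± 0.05, adjusted p = 1.342e-06) and MKI67 (-0.31 ± 0.05, adjusted p = 4.453e-06), while CDT1 rose (0.16 ± 0.03, adjusted p = 4.516e-05). Of 13 p53 targets 5 rose and none fell, with BBC3 (0.46 ± 0.05, adjusted p = 1.88e-08) and CDKN1A (0.45 ± 0.09, adjusted p = 0.000148) highest. The share of all genes called there was 35.4% (17.7% upward and 17.7% downward). The 5 of 13 all went upward, so 17.7% is the share to set beside them, and the difference was not tested. In neil2 against wt MKI67 fell in media (-0.43 ± 0.13, adjusted p = 0.0267), and CENPE rose (0.53 ± 0.12, adjusted p = 0.00325) and BBC3 fell (-0.46 ± 0.13, adjusted p = 0.0163) with BSO, in the comparison where XRCC2 and PMS1 rose. In the same unlettered set MKI67 stood at 22212 ± 1874 in wt in media and 14638 ± 2069 with BSO (n = 3). The part of cell cycle or p53 activity in the changes of the repair genes was not tested.

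Levels per exon length differed widely within these pathways. In the 21 media libraries DDB1 had the highest median, 1076 normalized reads per kilobase of exon, followed by FANCI (912), MSH6 (537) and EXO1 (460.0). ERCC5 had the lowest median of the 39, followed by ERCC6 (28.8) and UVSSA (47.9).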

How the data were processed

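RNA was sequenced from 42 libraries of HAP1 cells (10 groups, 5 genotypes in 2 treatments). The deposited values are a normalized signal: per the submitters' processing notes, the authors trimmed reads with Trim Galore, aligned them to GRCh38 (hg38) with HISAT2, handled them with SAMtools, counted them with featureCounts and normalized them with DESeq2. The sources used here give neither tool versions nor the strand setting of the counting, so reads of overlapping genes on opposite strands cannot be told apart. The table held 30182 entries, of which 9667 without a gene name (0.868% to 1.25% of reads) were left out. Whole reads were recovered for 100% of values (tolerance 1e-06) from the smallest step of each column; they gave the depths (17861 to 18505 genes detected, 26.8 M to 30.7 M reads) and an alternative count test (edgeR 4.0.16). That test called 0 to 5202 genes per comparison, and limma 0 to 5072.

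The main test was limma (3.58.1, R 4.3.3) with an intensity trend on log2(value + 1) of the 14331 genes that had a name and averaged at least 10, with Benjamini-Hochberg adjustment over all of them, in 17 comparisons: 8 of a knockout with wt of its own label set, 5 of BSO with media by pairs, and 4 of the BSO change in a knockout with that in wt of its own set. Fold changes of low genes are understated on this scale. The replicate name pairs each BSO library with a media library, and the deviations of the 21 pairs from their group means correlated across genes with r = 0.193 to 0.849, each BSO library best with its own media library. The members, the other lists and the tests were chosen with earlier results of these data known. All 39 members are named; values per library are given for the 14 that changed most among members past the threshold in a knockout comparison, a BSO comparison or a difference, and for TRAIP, FANCD2 and FANCI, the rest by range, and up to 4 genes of each other list. Alternatives were pseudocounts of 0.5 and 5, a mean of 50 or no filter, equal column totals, edgeR, 1 mean per line, all wt libraries with the label set as a term, the replicate block or none, each library or pair left out, and, chosen after seeing the data, either label set of wt alone. The limma steps were tested on simulated data, and the edgeR test was not. Exon lengths and overlaps are from GENCODE v29, promoters from RefSeq (GRCh38.p14).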

Additional observations from a re-analysis of the deposited data

Results flagged for a closer look

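In 102 groups of 4 or 7 libraries the gap of the highest or lowest library was compared with the group's range. The groups were those of neil3 and neil123 (4 libraries) and of wt (7 libraries) in each treatment, for 17 members. Each wt group held both label sets, so a wt library apart within its own set was not looked for. The neil1 and neil2 groups, with 3 libraries each, were not tested. In these 102 groups 3 libraries stood apart, where chance gives about 1 in 20 groups. BRIP1 in neil123 in media stood at 984.6 in library 1B against 1201, 1226 and 1233 in the others, and the BRIP1 rise with BSO in neil123 was lost without that pair (0.10, adjusted p = 0.267). FANCL in neil3 with BSO stood at 902.7 in 2A against 734 to 748 in the others. FANCI in neil3 with BSO stood at 8080.1 in 1A against 7288 to 7381 in the others.

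The BSO change differed from that of unlettered wt in 7 tests of the difference itself: in neil1 for BRCA2 (0.45) and XRCC2 (0.34), and in neil2 for BRCA2 (0.45), XRCC2 (0.44), UVSSA (0.36), ERCC4 (0.30) and FANCE (-0.30), all on the log2 scale. Each of these calls was lost without the wt pair 1.1. The same genes differed between the label sets of wt.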

How the results depend on the processing

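No call turned its direction under any alternative. Of 59 calls of members 22 passed with every library or pair left out, 14 under every other alternative and 11 under both: 2 of 13 knockout calls, 9 of 39 BSO calls and 0 of 7 differences. With equal totals the members called numbered 0 for neil2 and 1 for neil123 against wt in media, 2 for neil123 with BSO, and 3 for BSO in neil1. With edgeR neil2 in media gave 1. With 1 mean per line the counts were 0 for neil123 in media, 4 for neil2 with BSO, 0 for neil123 with BSO, 5 for BSO in neil3, 0 for BSO in neil123 and 0 for the neil1 difference. With all wt libraries and a term for the label set, neil123 in media gave 1. With no filter neil2 with BSO gave 5 and the neil1 difference 1. Without the replicate block, that is without the pairing, BSO gave 8 in wt, 1 in neil1, 0 in neil2, 2 in neil3 and 0 in neil123, and the neil1 and neil2 differences 0 and 0. With the lettered wt pairs alone BSO gave 7. The shares of all genes called under the same settings are not given beside these counts. The cause of these shifts was not tested, except that fewer libraries or lines enter some fits.

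Leaving out 1 library or pair, members called ran from 0 to 1 in neil1, 0 to 4 in neil2 and 0 to 2 in neil123 in media, and from 3 to 7 in neil2 and 1 to 1 in neil123 with BSO. For BSO against media they ran from 13 to 20 in wt, 0 to 4 in neil1, 1 to 2 in neil2, 5 to 9 in neil3 and 1 to 5 in neil123, and for the differences from 0 to 9 in neil1 and 0 to 11 in neil2. No share of all genes in the same fits stands beside these ranges. The replicate block on the letter A or B in neil3 and neil123 against wt is among the alternatives counted above.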
